A study of Arabidopsis thaliana with 6 samples.

Results

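Cytochrome P450 genes were examined in whole Arabidopsis thaliana seedlings of wild type and of a mutant in plastid glycolysis. The members are the 23 probe sets, out of 22746 on the array, that have exactly 1 gene in the probe table and whose symbol is CYP followed by a family number, a family letter and a member number. They stand for 23 genes of 5 subfamilies, 19 of them in CYP71B and 1 each in CYP51G, CYP78A, CYP79A and CYP84A. RefSeq lists 236 Arabidopsis genes with such a symbol, so the P450 genes described here are a small share of the superfamily, set by which probe sets are named. Cyclophilins, which also carry CYP symbols, were left out (2 probe sets), as were CYP718, which has no family letter, and 2 probe sets that name a P450 together with another gene.

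P450 enzymes are haem-containing monooxygenases. In plants most are anchored in the endoplasmic reticulum, take electrons from a P450 reductase and insert an oxygen atom into small molecules, which makes them recurrent steps in the synthesis and inactivation of hormones, sterols, phenylpropanoids and defence compounds. CYP71B is a large Arabidopsis subfamily whose genes lie mostly in tandem runs, and the best known member, PAD3, completes the synthesis of the defence compound camalexin. PAD3 was not analysed here, and neither were the CYP707A genes, whose enzymes inactivate abscisic acid.

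The wild type was Col-0. The mutant, gapcp1gapcp2 in the same ecotype, carries mutations in GAPCP1 and GAPCP2, which encode glyceraldehyde-3-phosphate dehydrogenases of plastid glycolysis. The sources used here do not give the alleles, and the genes' probe sets are unnamed in the table, so the targeted genes did not check the labels. Seedlings were 15 days old, and all of them, wild type included, had received 0.75 µM abscisic acid (ABA), a stress and dormancy hormone, for 8 days, so the comparison is of genotypes under ABA and not of the response to ABA. Each genotype had 3 Affymetrix arrays titled as biological replicates. Each value is a linear probe-set intensity, and intensities of different probe sets are not on a common scale. The filter, the choice of genes by highest mean and the word dim refer to intensity alone. No difference in intensity between genes is read as one in RNA amount.

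The arrays differed within genotypes. Array medians ran from 105.8 to 113.0, and between 395 and 785 values per array were below 0. The labelled tissue was checked with markers, of which few are named: the 3 measured of 18 photosynthesis markers had summed intensities of 26228 to 28600 in wild type and 26201 to 27772 in the mutant, and the 4 measured of 10 root markers 5440 to 7548 and 5004 to 7123. Of the 11 flower and pollen markers 1 was measured, AMS, a regulator of pollen development, with 6.76 to 30.8 over the 6 arrays, and the seed storage markers were not analysed here. The summed root markers were highest in wild type 1 (7548) and mutant 2 (7123). PYK10, at 4073 to 6109 over the 6 arrays, made up most of that sum. NAI2, EXPA7 and EXPA18 also had their highest values in those arrays. The summed intensity of the 3 measured of 23 iron deficiency genes was instead lowest there, at 589 for wild type 1 and 595 for mutant 2 against 1431 in wild type 2 and 1336 in mutant 1. That split was seen in BHLH101 and PYE and not in F6'H1. In a whole-seedling extract, fewer cells of a type and less RNA per cell cannot be told apart.

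The comparison left out the lowest 30% of probe sets by mean intensity over all 6 arrays, a limit that lay at 42.4, and 13 of the 23 genes were above it. The 10 others comprised CYP79A2, CYP78A9 and 8 CYP71B genes, and 5 of the 10 had at least 1 array below 0, as did 0 of the 13 tested. Nearest to the limit were CYP51G2, tested with a mean of 44.6, and CYP78A9, not tested with a mean of 40.8.

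**Figure D1:**
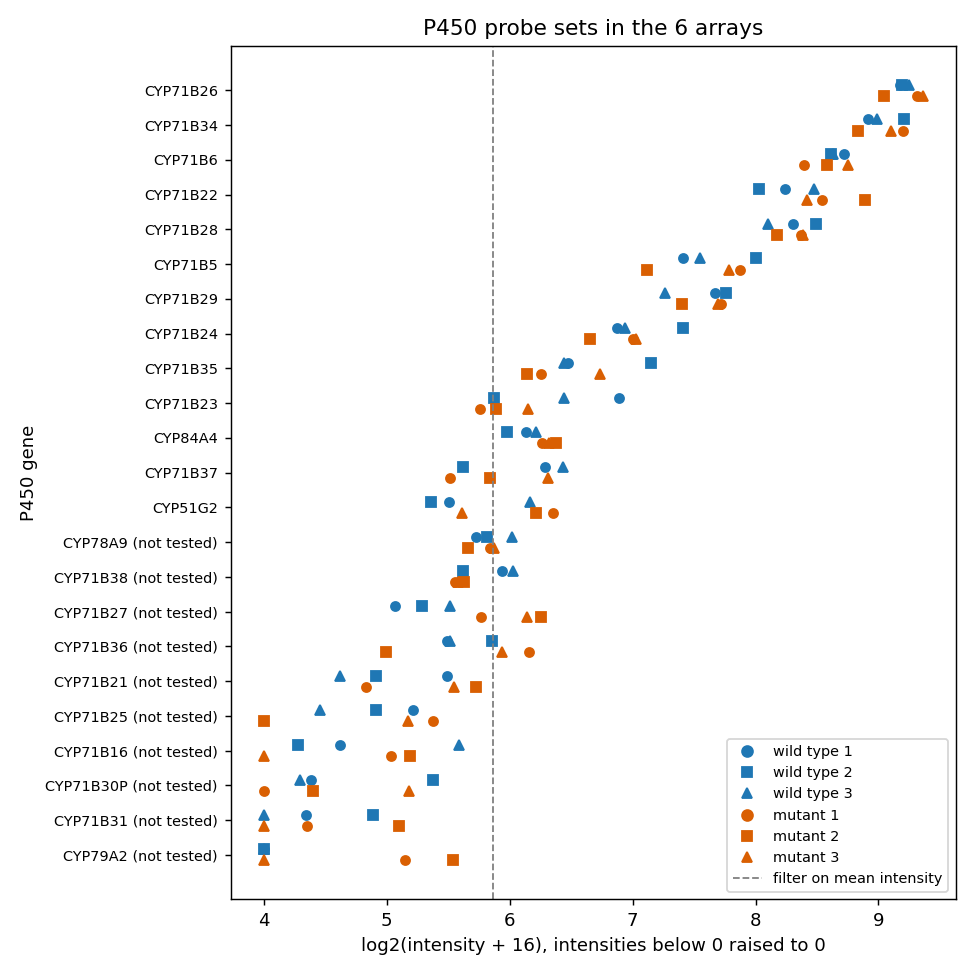
Each row is one of the 23 P450 genes and each symbol one array, on a scale of log2(intensity + 16) with intensities below 0 raised to 0; blue symbols are wild type, orange symbols the mutant, and the dashed line marks the filter at a mean intensity of 42.4. The 13 tested genes form the upper rows, wild type and mutant symbols are interleaved in 12 of them, and the values at the left edge belong to arrays at or below 0.

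No P450 gene passed the test between genotypes. Of the 13 tested, limma called 0 higher and 0 lower in the mutant, with the adjusted p threshold at 0.05, where the background over all 15922 probe sets tested was 0.00% in each direction, and no adjusted p was below 1.00 after rounding. Before adjustment 1 of the 13, CYP71B22, had a p under 0.05, beside 1.71% of all probe sets tested. In the fit 7 of the 13 lay above 0 and 6 below, beside 7766 above and 8156 below of all 15922 probe sets tested. The median log2 difference of the 13, mutant minus wild type, was 0.0064, beside -0.0031 for all probe sets tested. It ran from -0.092 without wild type 3 to 0.12 without mutant 2, and the values of the single genes ran from -0.47 to 0.38. The 95% interval lay within -1 to 1 for 11 of the 13, beside 15469 of all 15922 probe sets tested. That interval is on the log2 scale of the fit, which understates differences of dim genes, so it bounds their changes less well. The 2 genotypes did not overlap in 1 of the 13, CYP84A4, beside 6.27% of all probe sets tested.

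**Figure D2:**
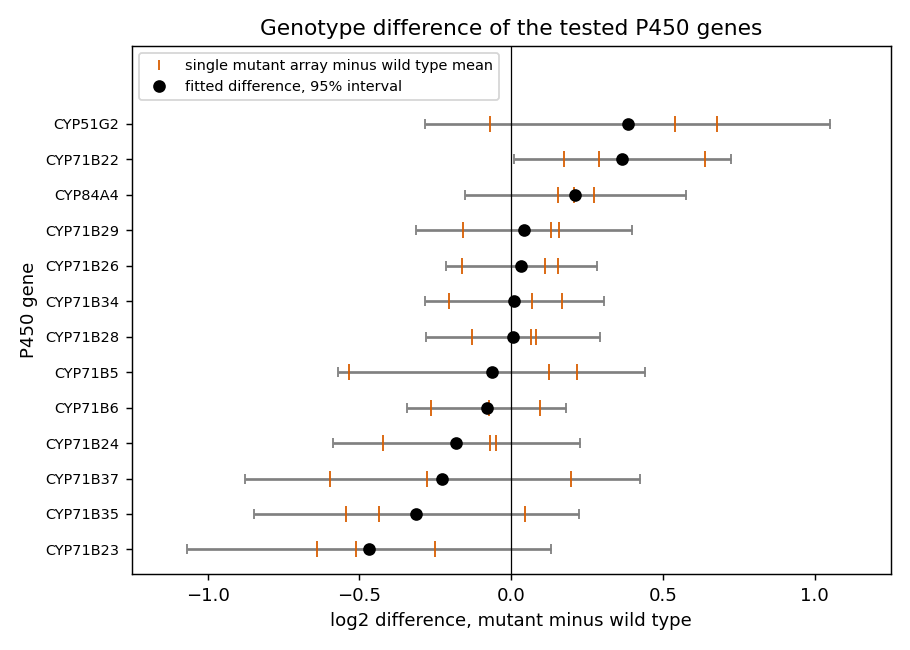
Fitted log2 difference, mutant minus wild type, on the log2(intensity + 16) scale for the 13 tested P450 genes, with the 95% interval as a bar and the 3 single mutant arrays, each minus the wild type mean, as orange ticks. The points run from -0.47 for CYP71B23 to 0.38 for CYP51G2, and the interval leaves out 0 for CYP71B22 alone, at an unadjusted p.

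Genes outside CYP71B are given first. CYP84A4 (AT5G04330), a relative of the lignin enzyme ferulate 5-hydroxylase that acts in the synthesis of arabidopyrones, had intensities of 54.1, 47.1 and 58.4 across wild type 1, 2 and 3, against 60.8, 67.4 and 63.8 across mutant 1, 2 and 3. The groups did not overlap, but the gap between the highest wild type and the lowest mutant array was small beside the range within wild type. The means were 53.2 ± 5.72 and 63.98 ± 3.28 (SD, n = 3), a log2 difference of 0.21 ± 0.16 (SE) with a limma adjusted p of 1.00.

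CYP51G2 (AT2G17330) is a transcribed pseudogene in RefSeq, related to the sterol 14-demethylase of the conserved CYP51 family. Its intensities were 29.4, 25.1 and 56.0 across wild type 1, 2 and 3, against 66.0, 58.4 and 32.8 across mutant 1, 2 and 3. Wild type 3 lay with mutant 1 and 2, and mutant 3 with wild type 1 and 2, so the groups overlapped. The log2 difference, 0.38 ± 0.29 (SE), was the largest positive value of the 13 and had the interval -0.28 to 1.05, which takes in a log2 difference of 1.

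CYP79A2 (AT5G05260), whose enzyme converts phenylalanine to the aldoxime that leads to benzyl glucosinolate, had intensities of -23.5, -8.68 and -0.72 across wild type 1, 2 and 3, against 19.5, 30.4 and -5.49 across mutant 1, 2 and 3. All wild type arrays and mutant 3 were below 0, and the gene was below the filter. In the fit without the filter its log2 difference of 0.89 ± 0.45 (SE) was the largest of the 23, on values floored at 0 in 4 arrays, with a limma p of 0.0776 unadjusted and 1.00 adjusted. CYP78A9 (AT3G61880), of the KLUH family of organ growth regulators and known for promoting fruit and seed size, had 36.9, 40.5 and 49.0 across the wild type arrays, against 41.2, 34.7 and 42.7 across the mutant arrays. It was not tested, and its groups overlapped throughout.

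The CYP71B genes lay mostly in runs of neighbours. In the gene order of the RefSeq table (TAIR10.1) 18 CYP71B genes fall within 25 consecutive genes, from CYP71B16 to CYP71B37, and 11 of them are members here. Another run holds 5 CYP71B genes within 6 consecutive genes, with CYP71B27, CYP71B28 and CYP71B29 measured, and yet another 4 within 6, with CYP71B5, CYP71B30P and CYP71B31 measured. CYP71B6 and CYP71B38 stand alone. Coordinates are not given, because the deposited table names no genome build. Tandem copies can be alike in sequence, and whether a probe set also read the RNA of a related copy was not tested.

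In the long run, CYP71B22 and CYP71B23 are direct neighbours. CYP71B22 (AT3G26200) had intensities of 287, 245 and 340 across wild type 1, 2 and 3, against 355, 457 and 327 across mutant 1, 2 and 3. Wild type 3 lay above mutant 3, so the groups overlapped, and the highest array was mutant 2. The means were 291 ± 47.9 and 380 ± 68.6 (SD, n = 3), a log2 difference of 0.37 ± 0.16 (SE) with an interval of 0.0083 to 0.72. The limma p was 0.0459 unadjusted and 1.00 adjusted over all probe sets. The unadjusted p was under 0.05 in 8 of 18 alternative fits and ran from 0.0219 to 0.162, and without mutant 2 the log2 difference was 0.23.

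CYP71B23 (AT3G26210) had intensities of 102, 42.5 and 71.1 across wild type 1, 2 and 3, against 38.3, 43.3 and 55.0 across mutant 1, 2 and 3. Wild type 1 stood highest, and wild type 2 lay within the mutant range. The log2 difference of -0.47 ± 0.26 (SE) was the largest negative value of the 13, with the interval -1.07 to 0.13 and an adjusted p of 1.00 (limma), and it ran from -0.22 without wild type 1 to -0.73 without wild type 2, where the unadjusted p was 0.0130 and the adjusted p 1.00. Thus the 2 neighbouring genes had fitted values of opposite sign, neither of which passed.

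Farther along, CYP71B24, CYP71B26 and the neighbours CYP71B34, CYP71B35, CYP71B36 and CYP71B37 were measured. CYP71B24 (AT3G26230) had 101, 154 and 107 across wild type 1, 2 and 3, against 113, 84.7 and 114 across mutant 1, 2 and 3, and CYP71B35 (AT3G26310) had 73.1, 126 and 71.2 across the wild type arrays, against 60.3, 54.8 and 90.5 across the mutant arrays. Both were highest in wild type 2 and lowest in mutant 2, and their groups overlapped. The log2 differences were -0.18 ± 0.18 for CYP71B24 and -0.31 ± 0.24 for CYP71B35 (SE), and without wild type 2 they were -0.012 and -0.084. CYP71B37 (AT3G26330), which follows CYP71B36 in the run, had 62.2, 33.3 and 70.3 across the wild type arrays, against 29.8, 41.2 and 63.4 across the mutant arrays. Here wild type 2 and mutant 1 were the lowest arrays, and the log2 difference of -0.23 ± 0.29 (SE) ran from -0.47 without wild type 2 to -0.041 without mutant 1.

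In CYP71B26 and CYP71B34 the highest array was 1.245 and 1.301 times the lowest, as intensity + 16. CYP71B26 (AT3G26290) had 561, 570 and 592 across wild type 1, 2 and 3, against 621, 511 and 640 across mutant 1, 2 and 3, a log2 difference of 0.033 ± 0.11 (SE). CYP71B34 (AT3G26300) had 465, 576 and 490 across the wild type arrays, against 573, 439 and 534 across the mutant arrays, a log2 difference of 0.0099 ± 0.13 (SE). For both the mutant arrays enclosed or nearly enclosed the wild type range, and the 95% intervals were -0.22 to 0.28 and -0.28 to 0.30.

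In the run of 5, CYP71B28 (AT1G13090) had intensities of 301, 343 and 259 across wild type 1, 2 and 3, against 314, 272 and 318 across mutant 1, 2 and 3. Its neighbour CYP71B29 (AT1G13100) had 188, 200 and 138 across the wild type arrays, against 195, 154 and 192 across the mutant arrays. Both genes had their highest value in wild type 2 and their lowest in wild type 3, with mutant 2 next to lowest. Their log2 differences were 0.0064 ± 0.13 and 0.043 ± 0.16 (SE).

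CYP71B27 (AT1G13070), a transcribed pseudogene at the start of the same run, was below the filter, with a mean of 37.4. Its intensities were 17.5, 23.1 and 29.9 across wild type 1, 2 and 3, against 38.6, 60.4 and 54.7 across mutant 1, 2 and 3. All mutant arrays were above all wild type arrays. In the fit without the filter its log2 difference was 0.76 ± 0.23 (SE), with a limma p of 0.0086 unadjusted and 1.00 adjusted over 22746 probe sets. Without the filter 2 of the 23 genes, CYP71B27 and CYP71B22, had an unadjusted p under 0.05, beside 2.72% of all probe sets, and in 2 of the 23, CYP71B27 and CYP84A4, the groups did not overlap, beside 7.38%. CYP71B27 was named after its values were seen.

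CYP71B5 (AT3G53280), in the run of 4, had intensities of 155, 240 and 172 across wild type 1, 2 and 3, against 219, 123 and 204 across mutant 1, 2 and 3. Wild type 2 and mutant 1 were the highest arrays, and mutant 2 and wild type 1 the lowest. CYP71B34, COR15A (an ABA-responsive gene) and the iron deficiency genes BHLH101 and PYE, though not F6'H1, had the same highest and lowest arrays. The summed root markers given above ran the opposite way. Over all probe sets tested, deviations from the genotype means correlated at 0.59 between wild type 2 and mutant 1. Those of wild type 1 and mutant 2 correlated at 0.38. This order of arrays was thus not particular to CYP71B5 and the iron deficiency genes, and its cause was not tested. The log2 difference of CYP71B5 was -0.064 ± 0.22 (SE). Its spread within each genotype was larger than the difference between the genotype means, 189 ± 45.4 and 182 ± 51.4 (SD, n = 3). CYP71B6 (AT2G24180), whose enzyme acts on indole-3-acetonitrile in the formation of indole-3-carboxylic acid compounds, had 407, 377 and 380 across the wild type arrays, against 320, 367 and 415 across the mutant arrays. Mutant 1 was its lowest array and mutant 3 its highest, and the log2 difference was -0.081 ± 0.12 (SE).

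The remaining CYP71B genes were dim. CYP71B38 had a mean of 42.6 ± 8.37 for wild type against 32.2 ± 1.27 for the mutant and CYP71B36 33.5 ± 7.27 and 39.0 ± 20.6 (SD, n = 3). CYP71B21 had 17.2 ± 10.5 and 26.7 ± 12.7. CYP71B16, CYP71B25, CYP71B30P and CYP71B31 had means over all 6 arrays of 13.3, 14.2, 9.73 and 4.47, each with 1 or 2 arrays below 0. Their 95% intervals in the fit without the filter lay within -1.17 and 1.04. CYP71B30P carries the P of a pseudogene in its symbol, although RefSeq lists it as protein coding.

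The spread of the P450 genes was measured within genotypes and over all 6 arrays. The median SD within genotypes on the log2 scale was 0.23 for the 13 tested genes, beside 0.16 for all probe sets tested, which were not matched in intensity. Over all 6 arrays, the ratio of the highest to the lowest array, each as intensity + 16, was at least 2 for 2 of the 13, CYP71B23 at 2.18 and CYP71B35 at 2.00, beside 6.81% of all probe sets tested, and CYP51G2 followed at 1.997. The count was 1 of the 13 without wild type 1, without wild type 2 or without mutant 2. Of all probe sets tested, the shares were then 5.63%, 5.85% and 4.89%. Below the filter the ratio was at least 2 in 8 of the 10 genes, beside 61.0% of all probe sets below it, where it follows small absolute differences.

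The high and low arrays were shared by several genes but not by genotype. Wild type 2 was the highest array for 6 of the 13 genes (46.2%), beside 21.1% of all probe sets tested, and these were CYP71B5, CYP71B24, CYP71B28, CYP71B29, CYP71B34 and CYP71B35. Mutant 2 was the lowest array for 5 of the 13 (38.5%), beside 24.5% of all probe sets tested. CYP71B22 and CYP84A4 ran the other way, lowest in wild type 2 and highest in mutant 2. CYP51G2, CYP71B23 and CYP71B37 were also low in wild type 2.

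**Figure D3:**
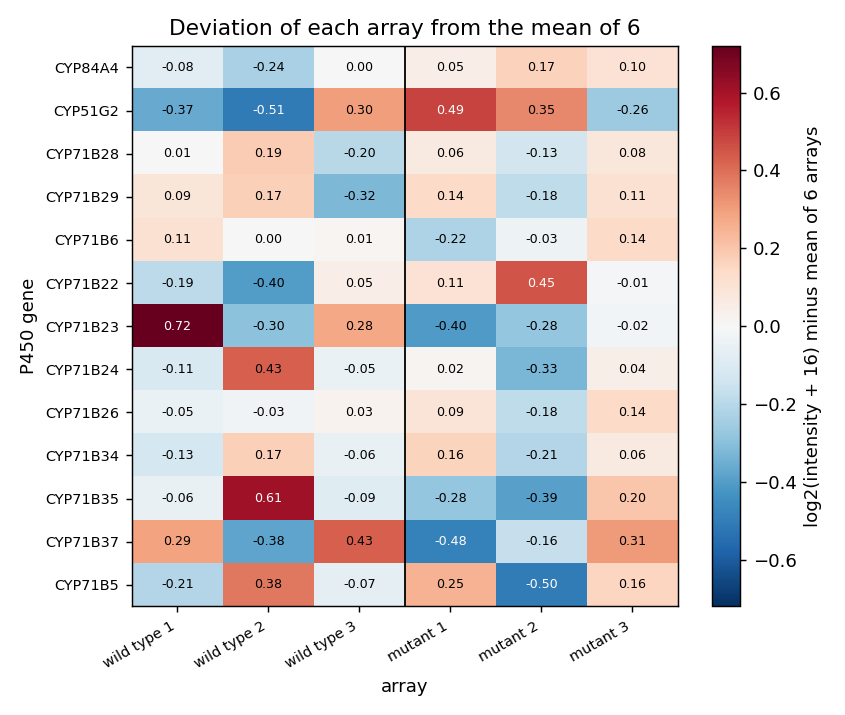
Deviation of each array from a gene's mean over the 6 arrays, on the log2(intensity + 16) scale, for the 13 tested P450 genes, with CYP71B genes in chromosomal order; red is above and blue below the mean, and the line separates wild type from mutant arrays. Wild type 2 is highest in 6 rows and mutant 2 lowest in 5, and the largest deviation is 0.72, for CYP71B23 in wild type 1.

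CYP71B23 had the widest relative range of the tested genes. The 5 named genes with the most similar pattern over the 6 arrays, by Pearson's r of log2(intensity + 16) among 8759 candidates, were AT5G66420 (0.98), GSO1 (0.97), AT1G67800 (0.97), AT4G20860 (0.96) and AT2G41160 (0.96). GSO1, a receptor kinase gene of root barrier and embryo cuticle formation, had intensities of 147, 119 and 132 across wild type 1, 2 and 3, against 119, 115 and 124 across mutant 1, 2 and 3. These r values are a description over 6 arrays that share their extracts, and the best of so many candidates is high by choice.

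Of other genes of the pathways that P450 enzymes serve few were measured. With 0.00% of all probe sets called in either direction, a count of 0 in a list says nothing particular to it. Of all probe sets tested 48.8% were fitted above 0, and counts of direction in such short lists are a description. The P450 reductases and cytochrome b5 genes were not analysed here, nor were the brassinosteroid and cuticle lists. Among glucosinolate genes other than P450, 3 of 27 were measured and 0 passed, with 2 fitted above 0 and 1 below. BCAT4, which starts the chain elongation of methionine, had intensities of 1467, 1590 and 1400 across wild type 1, 2 and 3, against 1688, 1389 and 1666 across mutant 1, 2 and 3, a log2 difference of 0.085 ± 0.10 (SE). Mutant 2 was its lowest array and mutant 1 its highest.

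Of the phenylpropanoid and flavonoid genes 4 of 24 were measured and 0 passed, 2 above 0 and 2 below, and DFR, of anthocyanin synthesis, had a log2 difference of -0.23 ± 0.15 (SE). Of the 3 gibberellin genes measured out of 16, all receptors, 0 passed and all 3 were fitted below 0, with a median of -0.10; GID1A had 247 ± 11.7 for wild type against 229 ± 9.28 for the mutant (SD, n = 3). Of 23 genes of ABA metabolism and response 5 were measured, all ABA-responsive, and 0 passed, with a median log2 difference of 0.045. Their summed intensity was highest in wild type 1 (7510) and mutant 2 (7260) and lowest in wild type 2 (5302) and mutant 1 (5198), as for the root markers; this order of arrays held for LEA4-5, LTI30 and COR47, while COR15A had the reverse. COR15B had 459 ± 29.9 and 474 ± 34.2 (SD, n = 3). LYC, for a lycopene cyclase, was the 1 measured gene of the carotenoid and sterol list, with a log2 difference of -0.089 ± 0.16 (SE). Of 17 jasmonate genes 1 was tested, OPCL1, at 0.0038 ± 0.12 (SE). In the iron deficiency list 0 of 3 passed, and F6'H1, an enzyme of coumarin synthesis, had -0.10 ± 0.11 (SE).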

How the data were processed

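Per the labels' protocols, total RNA of whole seedlings was labelled with biotin and hybridised to Affymetrix arrays, 3 per genotype. The authors deposited 1 linear intensity per probe set and array. GCOS is named in the submitters' processing notes, while version, summarisation, scaling and background step are not given in the sources used. Negative values show that something had been subtracted, which affects dim genes most. One free-text label speaks of embryos and was not used, since the source, tissue and protocol labels name seedlings.

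By the platform's probe table, there are 13513 probe sets with 1 gene, 503 with several and 8730 unnamed here; all 23 members matched RefSeq by gene ID with the same symbol. Values below 0 were set to 0 before taking log2(value + 16), so differences understate changes of dim genes. The lowest 30% of probe sets were left out. Genotypes were compared with limma 3.58.1 in R 4.3.3 (lmFit, eBayes with intensity trend, two-sided, Benjamini-Hochberg over 15922 probe sets, threshold 0.05). On simulated data with 200 changed probe sets, 95.8% of 4-fold, 71.0% of 2-fold and 31.9% of 1.5-fold changes were recovered. A run had 6.6 false calls on average. The simulation drew its noise independently for each array and probe set. Measured arrays shared deviations across genotypes (wild type 2 and mutant 1, r = 0.59), so these rates may not hold for the measured data. Nothing says that the replicates came from separate cultures beyond their titles.

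The genes named were those with an unadjusted p under 0.05, the 5 largest differences in each direction, the 8 widest ranges between arrays, and per functional group the smallest p and highest mean; this took in 11 of the 13 tested genes, and the other members were added to account for all 23. Members and lists were chosen with earlier results of these data known. Alternatives changed the filter, normalization, pseudocount, variance model, array weights, floor and replicate block, and left out each array. Figures were drawn with matplotlib 3.10.9.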

Additional observations from a re-analysis of the deposited data

How the results depend on the processing

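Each of the 18 alternative fits with limma called 0 probe sets, P450 or other, and the lowest adjusted p among them was 0.999. Before adjustment, the 273 probe sets with a p under 0.05 became 619 without the filter, 117 with the lowest 50% left out and 137 with the replicate block; the 1 P450 gene became 0 to 2. The replicate block changed no call and left the P450 median at 0.0064. The replicate numbers are not stated to pair arrays, so they were not treated as pairs. The deviations of arrays with the same number correlated at -0.59, -0.48 and -0.13. Those of wild type 2 and mutant 1 correlated at 0.59, and those of wild type 1 and mutant 2 at 0.38. Deviations from a genotype's mean sum to 0, so some of these correlations must be negative, and they do not decide the pairing. The P450 median log2 difference ran from -0.092 to 0.12 with 1 array left out, the lowest without wild type 3 and the highest without mutant 2. The share of P450 genes with a highest over lowest ratio of at least 2 was 15.4%. It fell to 0% with the lowest 50% left out (8 genes left), while that of all probe sets went from 6.81% to 3.41%. Without the filter the shares were 43.5% of P450 genes and 23.1% of all probe sets. With 1 array left out the P450 share ran from 7.69% to 15.4%, beside 4.89% to 6.04% of all probe sets. For these shares, leaving out an array was an alternative chosen after seeing the data. Updated symbols gave the same 23 members. With 1 array left out the sign turned in 15 of 78 values, in CYP71B28 (-0.092 to 0.10), CYP71B29 (-0.11 to 0.14), CYP71B6 (-0.17 to 0.010), CYP71B26 (-0.027 to 0.13), CYP71B34 (-0.069 to 0.12) and CYP71B5 (-0.21 to 0.17). With array weights CYP71B5 also turned (0.019), the 1 such value of 151 under the other alternatives. Of the 7 genes that did not turn, CYP71B22 ran from 0.23 to 0.48, CYP51G2 from 0.22 to 0.63, CYP84A4 from 0.15 to 0.26, CYP71B23 from -0.73 to -0.22, CYP71B24 from -0.28 to -0.012, CYP71B35 from -0.49 to -0.084 and CYP71B37 from -0.47 to -0.041. The cause was not tested. Of the 10 genes below the filter, 5 had at least 1 array below 0.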
